A study of Mus musculus with 12 samples.

Results

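The genes described here are 32 genes known from spermatogonia, the mitotic germ cells at the base of the seminiferous tubule. They were chosen by name, with earlier results of these data known. A row was found for 31 of them in each of the 2 count tables, which hold 21429 gene symbols each. No row carries the symbol Taf4a. The libraries come from later germ cells of mouse testes, so levels of these genes are levels in cells that have left the spermatogonial stage. Pachytene spermatocytes (PS) are germ cells in the middle of meiotic prophase. Round spermatids (RS) are haploid and follow the meiotic divisions. Control animals carried Hdac3fl/+, a floxed allele beside a normal one, with wild type as their genotype label and no cre named. Knockout (KO) animals were Stra8-cre/Hdac3fl/-, with a floxed allele, a deleted allele and a Cre transgene under the promoter of Stra8, a gene switched on in germ cells before meiosis. The genotypes therefore differ by the null allele and by the transgene as well as by the loss of HDAC3, a histone deacetylase of nuclear receptor corepressor complexes. The sources used here do not give age, strain or the way the cells were isolated. Each of the 4 groups (control PS, KO PS, control RS and KO RS) had 3 libraries of total RNA, described by the submitters as biological triplicates. In every group the libraries are replicate 1, replicate 3 and 1 more, called the remaining replicate, which the tables tie to its group and not to 1 sample. Values in counts scaled to the total gene count of the library (CPM) are given in that order.

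Spermatogonial stem cells renew under GDNF, a Sertoli cell ligand read by the co-receptor GFRA1 and the receptor kinase RET, and transcription factors such as ETV5 and BCL6B act downstream of it. Retinoic acid then moves undifferentiated spermatogonia to the differentiating state, in which the KIT receptor, read by its Sertoli ligand, and the basic helix-loop-helix factors SOHLH1 and SOHLH2 are active. D-type cyclins drive the mitotic divisions, and DMRT1 and DMRTB1 act at the switch from mitosis to meiosis. In the mouse, spermatids also transcribe a short form of Kit from an internal promoter, and counts per whole gene do not separate it from the full-length mRNA.

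Promoter sequences are shown for 5 members that changed in KO RS, to show how unlike these promoters are in the E-box, the site of basic helix-loop-helix factors that include members of the list. Of the 31 members, 20 had a RefSeq promoter, 26 promoters in all (build GRCm38.p6). Each was searched over the 250 bases before the start site for CANNTG on both strands. A stretch inside the GENCODE M21 gene is left out of what is printed, and capitals mark CANNTG. Kit and Ccnd3 had no E-box in the window, Tcf3 and Foxo1 had 1, and Sohlh1 had 5, of which 3 read CACGTG and 2 read CAGGTG.
Kit, chr5:75574737-75574915, plus strand: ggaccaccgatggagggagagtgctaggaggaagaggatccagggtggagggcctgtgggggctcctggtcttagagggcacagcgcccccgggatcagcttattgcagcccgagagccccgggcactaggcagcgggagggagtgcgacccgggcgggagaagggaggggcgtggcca
Tcf3, chr10:80433648-80433885, minus strand: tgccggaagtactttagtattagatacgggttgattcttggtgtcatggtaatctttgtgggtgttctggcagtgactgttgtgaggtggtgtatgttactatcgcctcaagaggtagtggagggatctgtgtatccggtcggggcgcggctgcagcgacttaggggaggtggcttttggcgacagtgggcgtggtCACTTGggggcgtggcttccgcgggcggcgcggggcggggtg
Foxo1, chr3:52268087-52268335, plus strand: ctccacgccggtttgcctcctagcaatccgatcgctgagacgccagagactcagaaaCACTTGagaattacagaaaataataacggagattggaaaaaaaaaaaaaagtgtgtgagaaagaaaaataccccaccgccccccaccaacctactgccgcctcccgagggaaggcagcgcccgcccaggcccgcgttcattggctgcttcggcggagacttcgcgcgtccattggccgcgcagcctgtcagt
Sohlh1, chr2:25847249-25847498, minus strand: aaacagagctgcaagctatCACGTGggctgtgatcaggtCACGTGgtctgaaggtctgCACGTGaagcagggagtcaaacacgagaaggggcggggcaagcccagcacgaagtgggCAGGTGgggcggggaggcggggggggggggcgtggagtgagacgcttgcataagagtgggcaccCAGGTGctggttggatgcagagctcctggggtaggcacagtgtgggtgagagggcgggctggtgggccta
Ccnd3, chr17:47504801-47505050, plus strand: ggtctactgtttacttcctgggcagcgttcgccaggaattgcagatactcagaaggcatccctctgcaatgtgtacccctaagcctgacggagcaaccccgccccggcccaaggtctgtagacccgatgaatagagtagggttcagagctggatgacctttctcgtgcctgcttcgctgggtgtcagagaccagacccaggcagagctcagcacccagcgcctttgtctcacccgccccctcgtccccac

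Over all 26 member promoters the E-box CANNTG was present in 57.7%, against 66.2% of all 32851 RefSeq promoters of the same length. CAGCTG, an E-box that reads the same on both strands and is contained in the CANNTG search, was found in 26.9% of the members' promoters and in 13.0% of all. The 26.9% stands for 7 promoters of 5 genes, every Upp1 promoter among them. The Upp1 windows that start at 9117758 and 9117853 on chromosome 11 overlap and hold the same CAGCTG. The E-box CACGTG was found in 3.85% against 6.02%, and CAGGTG or its complement in 15.4% against 17.2%. GGGCGG, the core of the GC box, was found on either strand in 65.4% against 32.7%, and TATAAA in 3.85% against 12.4%. No member promoter held TGACGTCA, the cAMP response element, which was in 1.55% of all. These shares are descriptions of letters in a window. Dmrt1, Zbtb16, Ccnd1, Ccnd2, Sall4, Ret, Bcl6b, Pou3f1, Cdh1, Itga6 and Thy1 had no entry.

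Gene counts per library ranged from 11205732 to 17467583, and 3 counts were worth 0.172 to 0.268 CPM. The remaining replicates were shallower, at 11205732 (KO RS) to 13438386 (KO PS), than replicates 1 and 3, at 16842756 to 17467583. Hdac3 was at 58.9, 51.5 and 88.9 CPM in control PS against 17.4, 17.5 and 26.3 in KO PS, and at 38.9, 42.3 and 49.7 CPM in control RS against 13.7, 16.0 and 19.5 in KO RS, so it was lower in every KO library. Of 11 spermatid markers such as Acrv1 and Prm1, 10 were higher in control RS than in control PS and none was lower, and of 9 pachytene markers such as Sycp1 and Spo11, 5 were lower and none higher. Markers of somatic testis cells were present in both cell types: the 21 Sertoli markers summed to 617 to 1557 CPM in control PS and to 73.3 to 120 CPM in control RS. In bulk libraries such as these, fewer cells of a type and less RNA per cell cannot be told apart.

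In control cells the listed genes spanned a wide range per kilobase of exon (CPM per kb, exon lengths from GENCODE M21, since the sources used here do not name the annotation the authors used). Dmrtb1, a DM-domain factor needed for spermatogonia to enter meiosis, stood first in both cell types, at 360 to 533 CPM per kb in control PS and 347 to 425 in control RS. In PS it was followed by Id4 at 9.18 to 17.6, Epcam at 11.97 to 14.9, Uchl1 at 7.05 to 18.0 and Ccnd3 at 5.38 to 6.86 CPM per kb. The ranges of Id4, Epcam and Uchl1 overlapped. In RS the order after Dmrtb1 was Ccnd3 at 20.01 to 22.7, Epcam at 14.6 to 16.8, Uchl1 at 8.39 to 12.5 and Rhox13 at 4.85 to 8.37 CPM per kb, and none of these 4 ranges overlapped. At the lower end, Nanos2, an RNA-binding protein of stem cells, had no count in any PS library. Neurog3, a factor of undifferentiated spermatogonia, reached at most 0.297 CPM in a control library. Both stayed below the filter on low counts in every comparison.

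**Figure D1:**
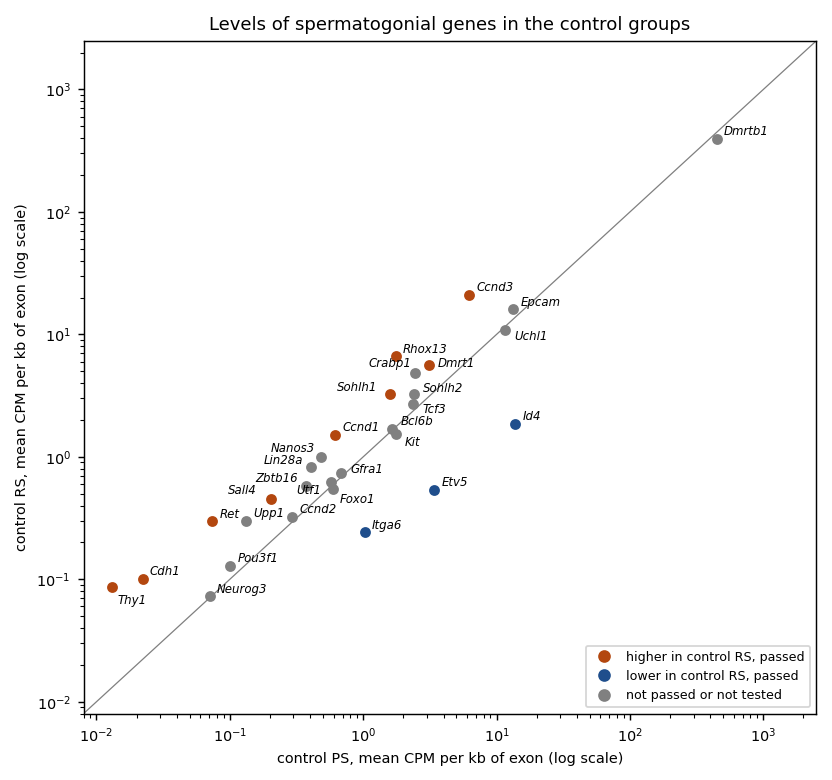
Mean level of each listed gene in control PS (x axis) and control RS (y axis) in CPM per kb of exon, both axes on a log scale, with a line of equal level; each point is the mean of 3 libraries, and Nanos2 is not drawn because it was at 0 in PS. Dmrtb1 lies far above the rest near the line, Id4, Etv5 and Itga6 lie below it, and Ccnd3, Rhox13 and Ret lie above it.

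The comparison of the 2 control groups asks which of these genes differ between normal spermatocytes and spermatids. Of the 29 members tested, 9 were higher and 3 lower in control RS at an adjusted p under 0.05 by edgeR's quasi-likelihood test, against 27.8% of all 16581 genes tested that were higher and 30.9% that were lower. Since 9 of 29 is near the first share, the count of higher members does not stand apart from the background. The median log2 fold change was 0.64 over the tested members and -0.09 over all genes. In CPM, 8 members had control RS libraries all above those of control PS, and 3 had them all below. Over all 16581 genes these numbers were 4443 and 6239. With libraries paired by replicate number 13 members passed as higher and 3 as lower, against 32.4% and 37.2% of all genes. Markers of somatic cells differed between the same groups: 19 of 20 Sertoli and 8 of 10 Leydig markers were lower in control RS, with 0 and 1 higher, while 9 of 11 macrophage and 7 of 13 peritubular markers were higher, with 1 lower in each list (12 higher and 1 lower for the peritubular list with the pairing). The Leydig sum was 480 to 1020 CPM in control PS and 22.6 to 74.1 CPM in control RS, the macrophage sum 28.3 to 51.8 CPM and 72.3 to 84.8 CPM, and the peritubular sum 170 to 250 CPM and 441 to 484 CPM. Their part in the values of the listed genes was not tested.

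Id4, Etv5 and Itga6 fell from PS to RS. Id4, an inhibitor of basic helix-loop-helix factors and a marker of stem cells, was at 35.3, 55.7 and 67.9 CPM in control PS and at 5.30, 6.78 and 9.32 CPM in control RS (log2 fold change -2.75, SE 0.388, adjusted p = 3.35e-05). Etv5, an ETS factor of the GDNF response, went from 12.02, 9.20 and 20.8 CPM to 2.04, 2.07 and 2.52 CPM (-2.50, SE 0.411, adjusted p = 0.000127). Itga6, the laminin receptor subunit used to enrich stem cells, went from 8.30, 6.53 and 12.9 CPM to 2.21, 1.95 and 2.37 CPM (-1.93, SE 0.293, adjusted p = 6.5e-05). In none of the 3 did the groups overlap, and over all 16581 genes 6239 lay wholly lower in control RS. The stem and progenitor list, which does not hold these genes, had 4 genes higher and 6 lower of 18 tested. The differentiating list had 9 higher and 3 lower of 18. Over all genes 27.8% were higher and 30.9% lower, and the stem and progenitor counts are near these shares.

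Of the D-type cyclins, which activate CDK4 and CDK6, Ccnd3 and Ccnd1 rose from PS to RS. Ccnd3 was at 47.2, 56.5 and 60.2 CPM in control PS and at 176, 178 and 199 CPM in control RS (log2 fold change 1.89, SE 0.159, adjusted p = 4.56e-07). Ccnd1 went from 2.12, 2.61 and 3.95 CPM to 5.30, 7.88 and 8.17 CPM (1.46, SE 0.345, adjusted p = 0.00221). Neither overlapped between the cell types. Ccnd2 was at 2.58, 1.37 and 4.37 CPM in PS and 4.54, 2.24 and 2.37 CPM in RS and did not pass (adjusted p = 0.581).

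Among the receptors, Ret, the GDNF receptor kinase, was at 0.229, 0.356 and 0.906 CPM in control PS and at 2.097, 1.95 and 1.99 CPM in control RS (log2 fold change 2.23, SE 0.561, adjusted p = 0.00337). Leaving out the remaining control PS library moved its log2 fold change to 2.93. Its partner Gfra1 was at 3.95, 4.69 and 2.64 CPM and at 4.14, 4.08 and 3.97 CPM, with overlapping groups (adjusted p = 0.495). Kit was at 14.0, 11.9 and 20.9 CPM in PS and at 12.3, 13.0 and 15.9 CPM in RS, with overlapping groups (adjusted p = 0.911). Cdh1, the adhesion molecule E-cadherin, passed on counts of 1, 0 and 3 in control PS against 8, 8 and 6 in control RS (adjusted p = 0.0195), and Thy1, a surface glycoprotein of stem cells, on counts of 1, 1 and 0 against 8, 4 and 1 (adjusted p = 0.0206). Both calls were lost when some libraries were left out: Cdh1 without control PS replicate 1 or 3 (adjusted p up to 0.0738) and Thy1 without the remaining control PS library or control RS replicate 1 (up to 0.131). Without control PS replicate 3 or the remaining control PS library the log2 fold change of Cdh1 was 1.83 or 3.85 against 2.42 with all libraries, and that of Thy1 without control RS replicate 1 was 1.91 against 2.57.

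The transcription factors that rose were Rhox13, Sall4, Sohlh1 and Dmrt1. Rhox13, an X-linked homeobox gene of the germ line, went from 1.72, 0.831 and 2.06 CPM to 4.25, 5.75 and 7.33 CPM (log2 fold change 2.06, SE 0.312, adjusted p = 6.32e-05). Sall4, a zinc finger factor of undifferentiated spermatogonia, went from 0.859, 0.653 and 1.89 CPM to 2.21, 2.24 and 3.06 CPM (1.32, SE 0.397, adjusted p = 0.0102). These 2 did not overlap between the cell types. Sohlh1 was at 1.32, 1.25 and 3.54 CPM in PS and 3.44, 5.002 and 4.05 CPM in RS (1.23, SE 0.386, adjusted p = 0.0131), and Dmrt1 at 4.47, 7.66 and 11.9 CPM and 11.6, 16.8 and 15.4 CPM (1.04, SE 0.314, adjusted p = 0.0106). For these 2 the remaining control PS library reached into the RS range, and without it the log2 fold change of Sohlh1 was 1.87. The calls ended without control PS replicate 1 (adjusted p = 0.0590 for Sohlh1 and 0.0504 for Dmrt1) and, for Sohlh1, without control PS replicate 3 (0.0603). Dmrtb1, Foxo1 and Uchl1 did not pass and had log2 fold changes near 0, of -0.05, 0.04 and 0.09 (SE 0.205, 0.249 and 0.323), and by library size only those of Foxo1 and Uchl1 were -0.11 and -0.07. The pairing added Sohlh2, Lin28a, Crabp1 and Epcam, with adjusted p of 0.0213, 0.0182, 0.00151 and 0.00954 against 0.358, 0.0542, 0.0763 and 0.0501 without it.

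The comparison of KO with control within each cell type asks what the loss of HDAC3 does to these genes, and in round spermatids many of them were higher. In KO RS 15 of the 29 members tested were higher than in control RS and 1 was lower, against 18.7% of all 15934 genes tested that were higher and 12.4% that were lower. The rises ranged from 1.57-fold for Bcl6b to 3.92-fold for Sall4, and in each of these 15 genes every KO library lay above every control library. Over the tested members 20 had KO libraries all above the controls and 1 had them all below, against 34.7% and 11.4% of all genes. The median log2 fold change was 1.30 over the tested members and 0.02 over all genes. By role, the rises covered 3 of 7 receptors and surface proteins, 9 of 14 transcription factors, 1 of 3 D-type cyclins, 2 of 3 other proteins and 0 of 2 RNA-binding proteins. The unadjusted p was under 0.05 for 20 members that were higher and 1 that was lower, against 4069 and 3156 of all 15934 genes. DESeq2 called 16 of 31 members higher and 1 lower (14% and 12.3% of all genes). The authors' deposited table has an adjusted p under 0.05 for 17 of the 31 members in RS, 16 with a positive and 1 with a negative log2 fold change.

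**Figure D2:**
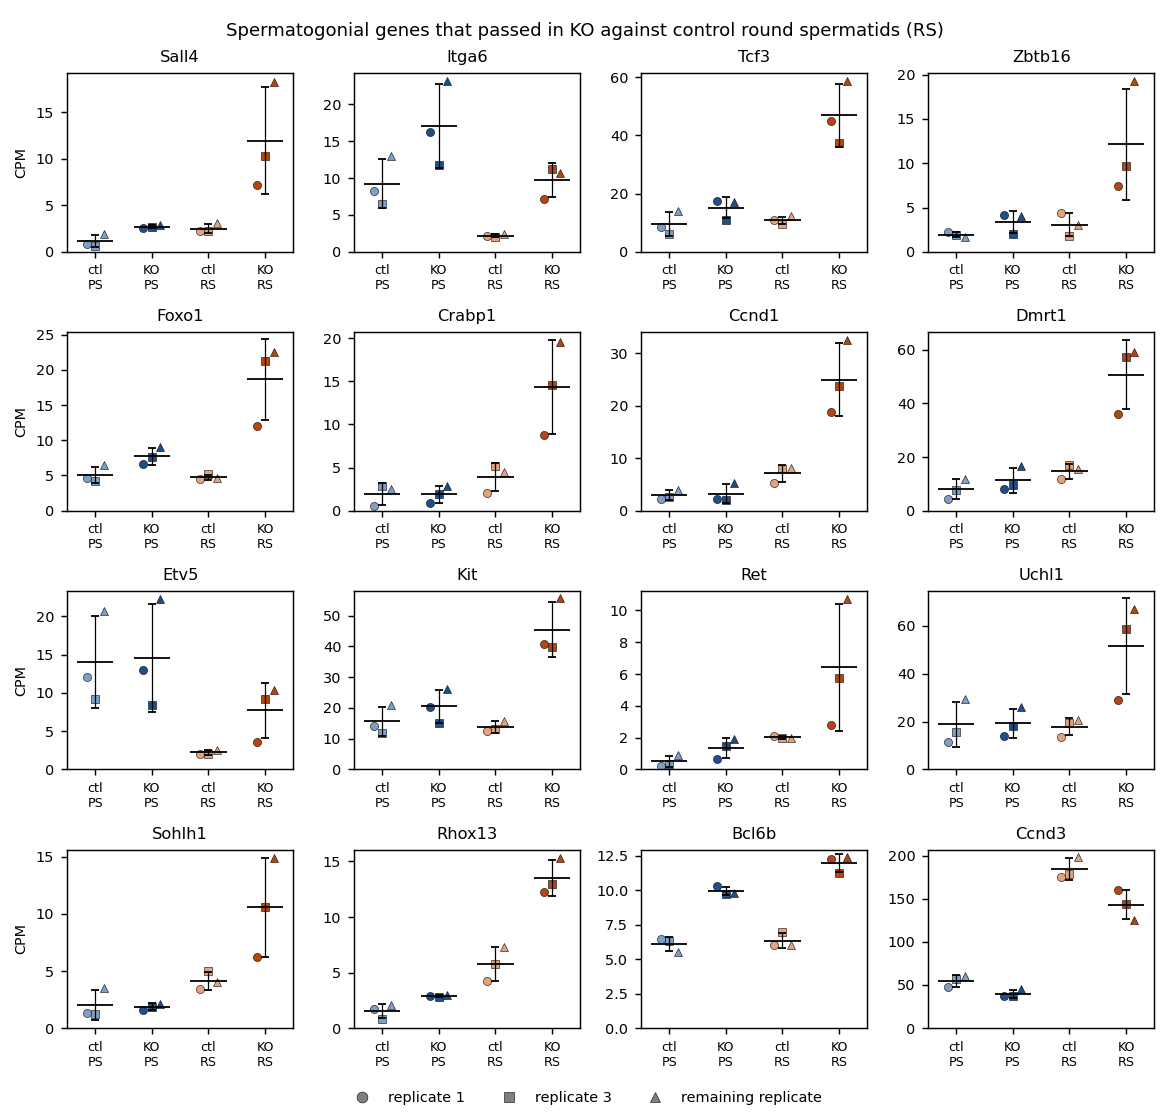
CPM of the 16 listed genes that passed in KO against control RS, 1 panel per gene with its own y axis; each symbol is a library (circle, replicate 1; square, replicate 3; triangle, remaining replicate), the horizontal line is the group mean and the bar is 1 SD (n = 3). KO RS stands above control RS in 15 panels and below it in that of Ccnd3, and in most panels replicate 1 is the lowest KO RS library.

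Among the receptors, Kit was at 12.3, 13.0 and 15.9 CPM in control RS and at 40.6, 40.0 and 55.9 CPM in KO RS (log2 fold change 1.46, SE 0.197, adjusted p = 0.00303). All 3 KO libraries lay well above the controls. Itga6 was at 2.21, 1.95 and 2.37 CPM against 7.10, 11.3 and 10.7 CPM (1.88, SE 0.267, adjusted p = 0.00313), and the KO RS values lay within the range of control PS. Ret was at 2.097, 1.95 and 1.99 CPM against 2.82, 5.73 and 10.7 CPM (1.37, SE 0.424, adjusted p = 0.035), with KO replicate 1 just above the controls and the remaining KO replicate highest. Gfra1 was at 4.14, 4.08 and 3.97 CPM against 5.16, 7.53 and 6.96 CPM and did not pass (0.42, SE 0.249, adjusted p = 0.213). Its KO libraries lay above the controls in CPM, as they did in 34.7% of all genes tested.

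Epcam, Cdh1 and Thy1 did not pass. Epcam, an epithelial adhesion molecule found on germ cells, was at 32.1, 36.9 and 36.3 CPM against 42.8, 59.5 and 51.9 CPM (log2 fold change 0.28, SE 0.170, adjusted p = 0.218). Cdh1 was at 0.466, 0.460 and 0.458 CPM against 0.645, 1.04 and 2.41 CPM (adjusted p = 0.101), and Thy1 at 0.466, 0.230 and 0.0764 CPM against 0.763, 0.695 and 1.25 CPM (adjusted p = 0.0854). In each of the 3 the KO libraries lay above the controls in CPM, as they did in 34.7% of all genes tested. CPM are scaled by library size only. On that scale the median log2 fold change of all genes was 0.28, and that of Epcam was 0.55 (adjusted p = 0.0385 by edgeR).

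Several transcription factors of undifferentiated spermatogonia rose. Sall4 was at 2.21, 2.24 and 3.06 CPM in control RS and at 7.16, 10.3 and 18.3 CPM in KO RS (log2 fold change 1.97, SE 0.347, adjusted p = 0.00538), the largest fold change among the 29 tested. Zbtb16, the zinc finger factor PLZF needed for stem cell renewal, was at 4.37, 1.84 and 2.98 CPM against 7.39, 9.73 and 19.3 CPM (1.70, SE 0.398, adjusted p = 0.0127). Foxo1, a forkhead factor of stem cells, was at 4.43, 5.17 and 4.58 CPM against 12.1, 21.3 and 22.6 CPM (1.69, SE 0.259, adjusted p = 0.0037). In all 3 KO replicate 1 was the lowest KO library and still above every control.

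Etv5, which responds to GDNF, was at 2.04, 2.07 and 2.52 CPM against 3.58, 9.21 and 10.4 CPM (log2 fold change 1.51, SE 0.373, adjusted p = 0.0152). Bcl6b, a transcriptional repressor that also responds to GDNF, was at 5.999, 6.96 and 6.04 CPM against 12.3, 11.2 and 12.4 CPM (0.65, SE 0.222, adjusted p = 0.0473). The Bcl6b libraries were tight within each group. Pou3f1, a POU factor of stem cells, was at 0.408, 0.690 and 0.382 CPM against 0.528, 2.49 and 1.78 CPM, with overlapping groups (1.37, SE 0.572, adjusted p = 0.0901; 0.0325 with the pairing). Id4 was at 5.30, 6.78 and 9.32 CPM against 4.69, 20.6 and 13.0 CPM, also overlapping (adjusted p = 0.325).

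Factors of differentiation and of the switch to meiosis divided. Tcf3, an E protein that pairs with tissue-specific helix-loop-helix factors, was at 10.8, 9.66 and 12.1 CPM against 44.8, 37.3 and 58.7 CPM (log2 fold change 1.85, SE 0.212, adjusted p = 0.00249), the lowest adjusted p among the members. Dmrt1, a DM-domain factor that holds spermatogonia in mitosis, was at 11.6, 16.8 and 15.4 CPM against 36.0, 57.3 and 59.2 CPM (1.52, SE 0.227, adjusted p = 0.00353). Its relative Dmrtb1 stayed at 723, 886 and 849 CPM against 818, 802 and 642 CPM (-0.38, SE 0.194, adjusted p = 0.152), with overlapping groups.

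Sohlh1, whose promoter holds the 5 E-boxes printed above, was at 3.44, 5.002 and 4.05 CPM against 6.22, 10.7 and 14.9 CPM (log2 fold change 1.05, SE 0.322, adjusted p = 0.0335). Its partner Sohlh2 was at 5.53, 6.90 and 10.7 CPM against 6.69, 14.8 and 18.7 CPM and overlapped (0.52, SE 0.354, adjusted p = 0.273; 0.0459 with the pairing). Rhox13 was at 4.25, 5.75 and 7.33 CPM against 12.3, 13.0 and 15.3 CPM (0.97, SE 0.251, adjusted p = 0.0186).

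The D-type cyclins moved apart. Ccnd1 was at 5.30, 7.88 and 8.17 CPM in control RS and at 18.8, 23.7 and 32.5 CPM in KO RS (log2 fold change 1.54, SE 0.257, adjusted p = 0.00467). Ccnd3 fell from 176, 178 and 199 CPM to 160, 144 and 125 CPM (-0.62, SE 0.181, adjusted p = 0.0291), and it was the only member that passed as lower. Ccnd2 was at 4.54, 2.24 and 2.37 CPM against 3.40, 10.4 and 14.1 CPM, with KO replicate 1 inside the control range (1.30, SE 0.464, adjusted p = 0.0557; 0.0286 with the pairing).

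Of the remaining members, Uchl1, a ubiquitin hydrolase of spermatogonia, was at 13.7, 19.4 and 20.5 CPM against 28.9, 58.7 and 67.1 CPM (log2 fold change 1.25, SE 0.281, adjusted p = 0.0114). Crabp1, a cytosolic retinoic acid binding protein, was at 2.097, 5.17 and 4.43 CPM against 8.74, 14.6 and 19.6 CPM (1.59, SE 0.376, adjusted p = 0.0135). Neither overlapped. Lin28a, which blocks maturation of let-7 miRNAs, was at 3.15, 2.87 and 3.82 CPM against 2.93, 9.44 and 19.5 CPM, with KO replicate 1 inside the control range (1.39, SE 0.517, adjusted p = 0.0635; 0.0148 with the pairing). Nanos3, Utf1 and Upp1 reached at most 1.87 CPM and did not pass.

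The count of 15 depended on the remaining KO RS library, which had the fewest gene counts of all libraries (11205732). The part of depth in this was not tested. Without that library 7 members rose and 0 fell, against 7.01% and 2.6% of all genes, and all 7 were among the 15. These were Kit, Dmrt1, Ccnd1, Sall4, Foxo1, Itga6 and Tcf3, which passed in every fit that left out 1 library. Zbtb16, Etv5, Uchl1, Rhox13 and Crabp1 lost their call when that library was left out (adjusted p 0.0585 to 0.0783) and kept it when any other single library was left out. Ret was lost without any of 5 libraries, all but KO RS replicate 1 (adjusted p up to 0.165), Sohlh1 without control RS replicate 1, the remaining control RS library, KO RS replicate 3 or the remaining KO RS library (up to 0.147), and Ccnd3 without control RS replicate 3, the remaining control RS library, KO RS replicate 3 or the remaining KO RS library (up to 0.122). Bcl6b was lost without any of the 6 libraries (up to 0.133) with DESeq2 (0.0625) and with no filter (0.0668). Without the remaining library of both groups edgeR called 0 of 29 members and 0 of 15959 genes. At an unadjusted p under 0.05, 12 members were higher and 0 lower in that fit, against 2628 and 1475 of all genes. Scaling by library size alone moved the median of all genes from 0.02 to 0.28 (log2), and the calls over all genes from 2974 higher and 1968 lower to 4236 higher and 779 lower. On that scale 18 members were higher and 0 lower, against 26.6% and 4.89% of all genes, and Ccnd3 did not pass (-0.36, adjusted p = 0.0996). Relative to the median of all genes, the median of the members was 1.29 on the main scale and 1.31 on that scale.

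Other spermatogonial genes, on lists that do not include the 32, were counted in KO RS, where 18.7% of all genes were higher and 12.4% lower. Like the members, these lists were chosen with earlier results of these data known, so their counts are not separate support. Of 16 tested genes of the stem and progenitor list 7 were higher and 1 was lower, with a median log2 fold change of 1.05. The surface protein gene Mcam went from 10.95, 12.5 and 18.3 CPM to 37.1, 37.1 and 63.4 CPM (1.46, SE 0.261, adjusted p = 0.00565), and Egr3, an early growth response factor, was the gene that fell (-0.70, SE 0.215, adjusted p = 0.0345). Of 18 tested genes of the differentiating list 12 were higher and 1 was lower, with a median of 0.84. Stra8, the retinoic acid target needed for meiotic entry and the gene whose promoter drives the Cre transgene, was at 11.3, 19.0 and 24.5 CPM against 61.6, 55.0 and 63.8 CPM (1.46, SE 0.261, adjusted p = 0.00561). Dazl, an RNA-binding protein of germ cells, also rose (1.46, SE 0.210, adjusted p = 0.00323), and Dnmt3l, a cofactor of de novo DNA methylation, fell (-0.99, SE 0.211, adjusted p = 0.00955).

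Genes of the cell cycle were tested in the same comparison, in which 18.7% of all genes were higher and 12.4% lower. Of 17 partners of the D-type cyclins and other cell cycle genes, 7 were higher and 1 was lower, with a median log2 fold change of 0.76. Ccne2, cyclin E2, went from 8.68, 13.7 and 12.8 CPM to 45.0, 57.6 and 38.9 CPM (1.75, SE 0.238, adjusted p = 0.00303), and E2f1, a factor that opens S phase, from 4.19, 3.28 and 6.49 CPM to 13.8, 15.7 and 17.8 CPM (1.51, SE 0.266, adjusted p = 0.00541). Rbl2, a pocket protein that represses E2F targets, was the gene that fell (-0.58, SE 0.165, adjusted p = 0.0262). Of 12 DNA replication genes 8 were higher and 0 lower, with a median of 0.88. Mcm2, a subunit of the replicative helicase, went from 9.84, 11.1 and 14.0 CPM to 46.2, 51.4 and 68.9 CPM (1.99, SE 0.208, adjusted p = 0.00249), and the proliferation marker Mki67 from 63.5, 46.5 and 77.7 CPM to 175, 153 and 177 CPM (1.18, SE 0.203, adjusted p = 0.00507). In each of these 4 risen genes the KO libraries stood above all controls.

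Markers of germ cell stages and of somatic cells were counted in the same comparison, in which 18.7% of all genes were higher and 12.4% lower, or 28.8% and 26.1% with the pairing. Of 11 spermatid markers 3 were lower and 0 higher (8 lower with the pairing), with a median log2 fold change of -0.50. Acrv1, an acrosomal protein, fell from 230, 321 and 282 CPM to 171, 153 and 153 CPM (-1.07, SE 0.198, adjusted p = 0.00624), and Spaca1 and Tssk1 were the others. Of 9 pachytene markers Hormad1, a protein of the meiotic chromosome axis, was higher, at 40.4, 51.9 and 62.2 CPM against 67.9, 132 and 120 CPM (0.77, SE 0.242, adjusted p = 0.036), and none was lower. With the pairing Sycp1 and Sycp3 were also higher and Spo11 was lower. Of the cell cycle list 11 were higher and 2 lower with the pairing.

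Of 11 macrophage markers 10 were higher and 0 lower, none was at 0, and their sum was 75.3, 84.8 and 72.3 CPM in control RS and 215, 293 and 315 CPM in KO RS, above the controls in every KO library. Of 17 tested Sertoli markers 4 (Clu, Trf, Cldn11 and Vim) were higher and 0 lower (10 higher with the pairing), none of the 21 listed was at 0 in either group, and their sum was 78.1, 73.3 and 120 CPM in control RS and 93.1, 481 and 279 CPM in KO RS. Leydig markers gave 2 higher and 0 lower of 10 (5 higher with the pairing), with sums of 22.6 to 74.1 CPM and 33.9 to 240 CPM and only Cyp11b1 at 0, in KO RS. No peritubular marker of 13 and no endothelial marker of 7 passed by edgeR, and the unadjusted p was under 0.05 for 2 higher and 1 lower and for 1 higher and 0 lower of them. With the pairing 5 peritubular markers were higher and 2 lower. Without the pairing the counts of Sertoli and Leydig markers that passed are near the 18.7% of all genes that were higher. Their median log2 fold changes were larger than that of all genes, at 1.16 for Sertoli and 1.40 for Leydig markers. The median was 1.17 for macrophage, 0.50 for peritubular and 0.73 for endothelial markers, 1.30 for the listed genes and 0.02 for all genes. At an unadjusted p under 0.05, 10 Sertoli and 5 Leydig markers were higher and 0 lower, against 4069 of all 15934 genes that were higher. In KO RS replicate 1 the Sertoli sum was within the control range and the macrophage sum above it. The part of somatic cells and of other germ cell stages in the rise of the listed genes was not tested. Without Dmrtb1, which outweighs the rest, the listed genes summed to 321, 348 and 379 CPM in control RS and 478, 609 and 687 CPM in KO RS. Of the Sertoli and stromal ligands, Kitl, the ligand of KIT, was at 2.62, 1.32 and 1.76 CPM against 3.34, 10.4 and 9.37 CPM (log2 fold change 1.73, SE 0.423, adjusted p = 0.015). Gdnf was at 0.815, 0.632 and 0.611 CPM against 0.293, 0.463 and 0.535 CPM and did not pass (adjusted p = 0.126).

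**Figure D3:**
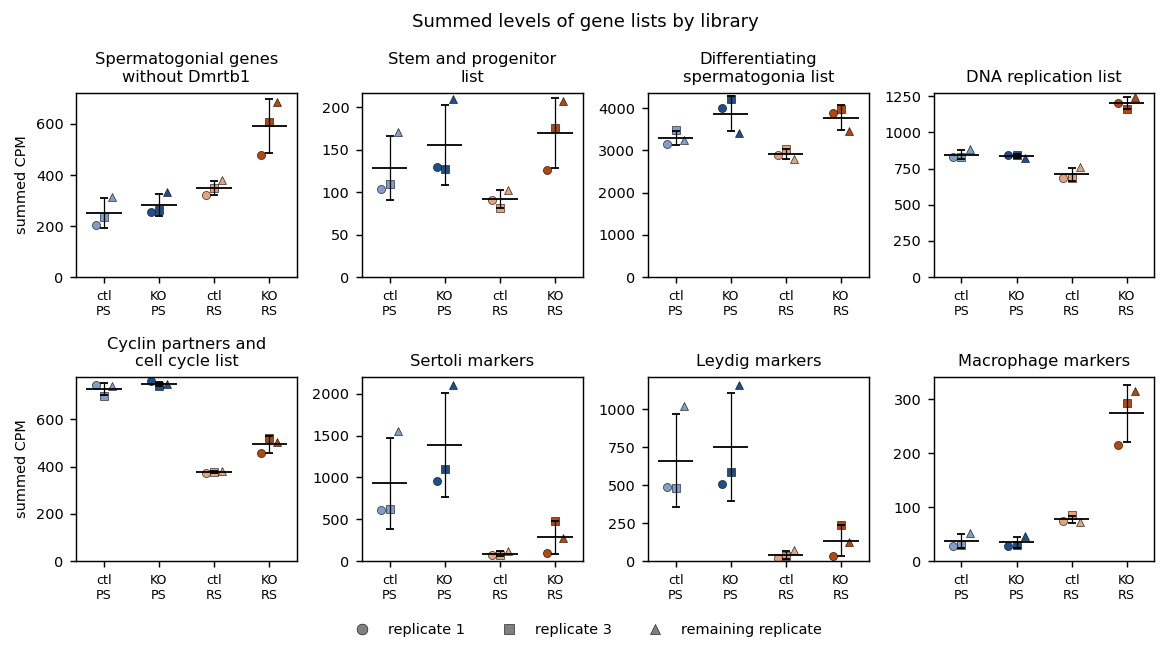
Summed CPM of gene lists in each library (circle, replicate 1; square, replicate 3; triangle, remaining replicate), with the group mean as a line and 1 SD as a bar (n = 3); each panel has its own y axis. All 3 KO RS libraries are higher than control RS for the listed genes, the stem and progenitor list and the differentiating list. The same holds for the DNA replication list, the cell cycle list and the macrophage markers. The Sertoli and Leydig sums spread widely over the KO RS libraries, with replicate 1 lowest.

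In pachytene spermatocytes none of the 23 members tested passed in KO against control, against 0.91% of all 15272 genes that were higher and 4.5% that were lower. The other 8 (Nanos2, Nanos3, Upp1, Pou3f1, Utf1, Neurog3, Cdh1 and Thy1) were below the filter on low counts, at 0.891 CPM or less in every PS library. At an unadjusted p under 0.05, 9 members were higher and 1 was lower by edgeR, against 1279 and 1866 of all 15272 genes. DESeq2 called 1 of 30 members, Itga6 (adjusted p = 0.0249), against 1.47% of all genes that were higher. Without the remaining library of both groups 1 of 25 members passed, Sall4 (adjusted p = 0.0363), against 1.83% of all genes that were higher. The median log2 fold change was 0.35 over the tested members and 0.06 over all genes, and 17 of the 23 were above 0. With libraries paired by replicate number 8 members passed as higher and 1 as lower, against 10.6% and 12.1% of all genes. The authors' deposited table has an adjusted p under 0.05 for 4 of the 31 members in PS.

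Of the 8 members that passed as higher with the pairing, Sall4 was at 0.859, 0.653 and 1.89 CPM in control PS and at 2.56, 2.70 and 2.90 CPM in KO PS (log2 fold change 1.34, SE 0.403, adjusted p = 0.0709; 0.0151 with the pairing). Without the remaining control PS library, which was the highest control, Sall4 passed (1.78, adjusted p = 0.0248), as did Itga6 (1.14, adjusted p = 0.0417). Itga6 was at 8.30, 6.53 and 12.9 CPM against 16.3, 11.8 and 23.1 CPM (0.92, SE 0.292, adjusted p = 0.0858; 0.00306 with the pairing), higher in KO in each numbered pair but with overlapping groups. Tcf3 was at 8.64, 6.06 and 14.1 CPM against 17.4, 10.9 and 17.2 CPM, again overlapping (0.72, SE 0.302, adjusted p = 0.195; 0.0169 with the pairing).

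Bcl6b was at 6.47, 6.35 and 5.52 CPM against 10.3, 9.74 and 9.82 CPM, with no overlap (log2 fold change 0.73, SE 0.259, adjusted p = 0.124; 0.0176 with the pairing). Foxo1 was at 4.64, 4.27 and 6.43 CPM against 6.58, 7.57 and 9.004 CPM (0.63, SE 0.273, adjusted p = 0.206; 0.0431), and Epcam at 28.8, 32.7 and 26.3 CPM against 36.3, 40.9 and 41.2 CPM (0.46, SE 0.188, adjusted p = 0.184; 0.0305). These did not overlap either. Of the 23 members tested, 5 had KO libraries all above and 1 all below the controls, against 1248 and 2439 of all 15272 genes. Rhox13 was at 1.72, 0.831 and 2.06 CPM against 2.91, 2.82 and 2.98 CPM (0.97, SE 0.374, adjusted p = 0.158; 0.0411), and Ret at 0.229, 0.356 and 0.906 CPM against 0.641, 1.47 and 1.93 CPM (1.52, SE 0.549, adjusted p = 0.13; 0.0223), where the groups overlapped. The gene lower with the pairing was Ccnd3, at 47.2, 56.5 and 60.2 CPM against 37.04, 37.4 and 44.9 CPM (-0.42, SE 0.166, adjusted p = 0.163; 0.0278).

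The other members did not pass in PS with or without the pairing. Kit was at 14.0, 11.9 and 20.9 CPM against 20.3, 15.1 and 26.0 CPM (log2 fold change 0.43, SE 0.254, adjusted p = 0.371). Dmrt1 was at 4.47, 7.66 and 11.9 CPM against 7.92, 9.50 and 16.6 CPM (adjusted p = 0.402), and Zbtb16 at 2.23, 1.90 and 1.73 CPM against 4.19, 1.99 and 4.02 CPM (adjusted p = 0.231). Their groups overlapped. Ccnd1 was at 2.12, 2.61 and 3.95 CPM against 2.27, 1.99 and 5.28 CPM (adjusted p = 0.863), Ccnd2 at 2.58, 1.37 and 4.37 CPM against 3.20, 2.82 and 4.17 CPM (adjusted p = 0.653), and Gfra1 at 3.95, 4.69 and 2.64 CPM against 2.91, 2.40 and 2.75 CPM (adjusted p = 0.47). Sohlh1 was at 1.32, 1.25 and 3.54 CPM against 1.57, 1.88 and 2.16 CPM (adjusted p = 0.973), and Sohlh2 at 2.35, 3.21 and 11.5 CPM against 3.26, 1.94 and 10.05 CPM (adjusted p = 0.942), the remaining replicate being highest in each of these groups. Id4, Uchl1, Etv5 and Lin28a had log2 fold changes of 0.15, 0.09, 0.09 and 0.16, and Crabp1 had -0.04, or 0.03 with the pairing. Dmrtb1 was at 927, 1111 and 749 CPM against 712, 999.6 and 928 CPM (-0.06, SE 0.202, adjusted p = 0.905), with overlapping groups.

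Of the other lists in PS, 3 of 18 differentiating genes were higher and 0 lower: Stra8 (log2 fold change 1.56, SE 0.277, adjusted p = 0.00826), Usp26, an X-linked ubiquitin protease (1.34, SE 0.317, adjusted p = 0.0263), and Nxf2, an X-linked mRNA export factor (0.91, SE 0.240, adjusted p = 0.0431). All 3 were also among the genes higher in KO RS. Over all genes in PS 0.91% were higher and 4.5% lower, or 10.6% and 12.1% with the pairing. At an unadjusted p under 0.05 by edgeR, 1279 of all 15272 genes were higher and 1866 lower. Cdk6, a kinase partner of the D-type cyclins, was the 1 gene of 17 that fell (-1.01, SE 0.212, adjusted p = 0.0149), and none rose (1 higher, E2f3, and 2 lower, Cdk6 and Rbl2, with the pairing). None of 14 stem and progenitor genes and none of 12 replication genes passed by edgeR, and the unadjusted p was under 0.05 for 3 higher and 1 lower and for 1 higher and 0 lower of them. With the pairing 5 stem and progenitor genes were higher and 1 lower, 11 differentiating genes were higher and 1 lower, and 1 replication gene was higher and 0 lower. Sertoli markers gave 0 of 20 (6 higher by unadjusted p; 16 higher with the pairing), with a median log2 fold change of 0.64 and sums of 617, 620 and 1557 CPM in control PS and 956, 1104 and 2102 CPM in KO PS, higher in KO in each pair. Macrophage markers summed to 28.3 to 51.8 CPM and 27.8 to 46.7 CPM. Leydig markers gave 0 of 10 (1 higher by unadjusted p; 3 higher with the pairing), and peritubular markers 3 lower and 0 higher of 12 (5 lower and 1 higher with the pairing). Spermatid markers fell in 7 of 11 and rose in none. The part of other cells in the PS values was not tested.

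**Figure D4:**
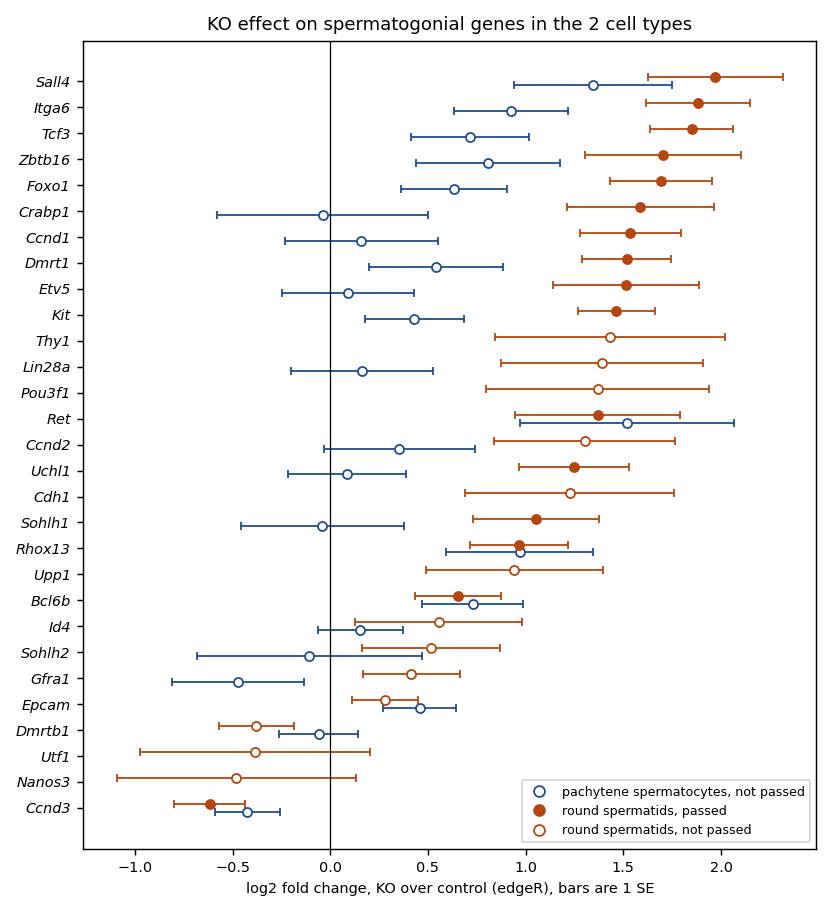
Log2 fold change of KO over control by edgeR for each listed gene that was tested, in PS (blue) and RS (orange), with bars of 1 SE; filled symbols passed at an adjusted p under 0.05. In RS 25 of 29 genes lie to the right of 0 and 16 symbols are filled, while in PS 17 of 23 lie to the right and none is filled.

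Whether the KO effect differed between the cell types was tested as an interaction in 1 fit of all 12 libraries. None of the 29 members passed, against 0.0181% of all 16581 genes with a larger effect in RS and 0% with a smaller one. At an unadjusted p under 0.05, 10 members had a larger log2 effect in RS and 0 a smaller one. Over all 16581 genes 1907 had a larger and 346 a smaller effect at that threshold. DESeq2 called no member. The median difference was 0.93 over the tested members and 0.11 over all genes. With libraries paired by replicate number 8 members passed, all with the larger effect in RS, against 6.74% of all genes. Over all genes 1117 passed with a larger effect in RS and 168 with a smaller one. The 8 members were Kit, Dmrt1, Ccnd1, Etv5, Uchl1, Crabp1, Foxo1 and Tcf3. Without the pairing, a pass in RS beside none in PS was not shown to be a difference between the cell types.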

How the data were processed

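RNA of isolated PS and RS was sequenced by the submitters from strand-specific TruSeq Stranded Total RNA libraries, per the labels' protocols. The authors made the deposited gene counts with HISAT2 2.1.0 and HTSeq on mm10, per the submitters' processing notes, which also name DESeq2. The sources used here give neither the annotation nor the strand setting of the counting, so overlapping, antisense and near-identical genes are uncertain. The deposited tables also hold the authors' log2 fold changes and p-values (unadjusted and adjusted), from which only counts of members under the threshold are given, and 12 columns of normalized values that were not used.

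In each group the count column without a number matches replicate 1 through the sample description, the column numbered 2 matches the sample titled replicate 3, and the column numbered 3 matches only its group and is the remaining replicate. Deviations of log2 CPM (prior count 2) from group means correlated across genes at 0.310 to 0.408 within a cell type for libraries with the same number and at -0.416 to 0.00420 for different numbers, and across cell types at 0.134 to 0.495 and -0.478 to 0.199. All same-number values were over 0.1, and numbers were taken to pair the libraries, the remaining replicates by elimination. Within a cell type the 2 ranges did not overlap. Across cell types they did, since different numbers reached 0.199 and same numbers went down to 0.134, so the pairing is less certain there. The deviations of the 3 libraries of a group sum to 0, so same-number values above 0 press different-number values below 0. Part of the gap within a cell type is therefore set by the method and is not separate support for the pairing. What made same-number libraries alike was not tested. P-values rest on the spread of the triplicates.

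CPM were taken over the total gene count of a library. In R 4.3.3, edgeR 4.0.16 was run over all genes with its quasi-likelihood test, TMM scaling and filterByExpr. Adjustment was by Benjamini-Hochberg, and a gene passed at an adjusted p under 0.05. Each KO comparison used the 6 libraries of its cell type, and the cell type comparison and the interaction used all 12. "With the pairing" means replicate number as an added term. Alternatives were DESeq2 1.42.0, scaling by library size only, no filter, other samples in the fit and leaving libraries out. The steps were tested on simulated data.

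All 31 members are accounted for. Values by library are given for members that passed in any comparison, or for KO with the pairing, and for Kit, Dmrt1, Zbtb16, Gfra1, Sohlh1, Sohlh2 and the D-type cyclins, and the others by range. The members and the other lists were chosen with earlier results of these data known. The CPM of 3 counts covers counting error only, because reads carried no molecular identifiers.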

Additional observations from a re-analysis of the deposited data

Results flagged for a closer look

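For 8 members the KO effect was larger in RS than in PS by a test of the difference itself, but only with libraries paired by replicate number. With the pairing 1117 of all 16581 genes passed with a larger effect in RS and 168 with a smaller one. The differences in log2 fold change, RS minus PS, were 1.05 for Kit (adjusted p = 0.00859), 0.98 for Dmrt1 (0.0278), 1.43 for Ccnd1 (0.0152), 1.44 for Etv5 (0.0344), 1.11 for Uchl1 (0.00908), 1.66 for Crabp1 (0.0227), 1.07 for Foxo1 (0.0339) and 1.11 for Tcf3 (0.0125). Without the pairing the adjusted p of these 8 ran from 0.201 for Kit to 0.35 for Crabp1 by edgeR, and DESeq2 called none of them. The pairing of the remaining replicates rests on elimination. Across cell types, correlations of libraries with the same number and with different numbers overlapped, so the pairing is less certain there.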

How the results depend on the processing

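For the 53 combinations of member and comparison that passed with or without the replicate block, 674 values were computed under the alternatives, and none reversed direction. Members that passed in neither were not among these, and values near 0 changed sign there, for example Sohlh1 in KO PS from -0.04 to 0.04 with the block and Foxo1 between the control groups from 0.04 to -0.11 by library size only. In KO PS the count of members that passed was 0, against 9 with the replicate block, 1 with DESeq2, 1 without every remaining library and 0 to 2 when 1 library was left out. In KO RS it was 16, against 0 without every remaining library and 7 to 21 when 1 library was left out, the lowest without the remaining KO RS library and the highest without KO RS replicate 1. In the comparison of control groups it was 12, and 9 to 13 when 1 library was left out. For the interaction it was 0, against 8 with the replicate block and 0 when any 1 library was left out. In lists outside the members the replicate block moved counts of calls by more than 1.5 times for Sertoli, Leydig, peritubular, spermatid, pachytene and cell cycle genes in KO RS, for the differentiating, stem and progenitor, cell cycle, Sertoli, Leydig and peritubular lists in KO PS, and for peritubular markers between the control groups, as the report gives them. It also added 1 replication gene, 1 somatic ligand, 1 pachytene marker (higher) and 1 macrophage marker (lower) in KO PS, where 0 had passed. For the interaction, where 0 genes of any list had passed, it gave 6 higher in each of the replication, cell cycle, peritubular and spermatid lists, 8 macrophage markers, and 1 in each of the differentiating, stem and progenitor, Sertoli and Leydig lists. Where a fit left a group with fewer libraries, that group was assumed to vary like the others. The cause of these shifts was not tested. The depth limits Nanos2 and Neurog3, which were below the filter in every comparison, and Nanos3, Upp1, Pou3f1, Utf1, Cdh1 and Thy1, which were below it in PS.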

Other observations

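RefSeq lists Taf4a as an older symbol of Taf4, a subunit of the general transcription factor TFIID, and the tables hold rows for Taf4 and for its gonad-enriched relative Taf4b. Taf4 was not counted among the members. It was at 17.1, 16.7 and 30.2 CPM in control PS and at 33.6, 24.7 and 24.2 CPM in KO PS, where the groups overlapped (log2 fold change 0.43, SE 0.248, adjusted p = 0.358 by edgeR). In RS it was at 5.48, 5.46 and 8.94 CPM in controls and at 25.2, 22.9 and 29.4 CPM in KO, with every KO library above every control (1.71, SE 0.241, adjusted p = 0.0031). From control PS to control RS it fell (-1.54, SE 0.258, adjusted p = 0.000151), while Taf4b rose (0.92, SE 0.221, adjusted p = 0.00252). Taf4b was at 16.7, 21.3 and 23.3 CPM in control RS and at 43.9, 49.1 and 54.9 CPM in KO RS (1.004, SE 0.185, adjusted p = 0.0061).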
